A study of Mus musculus with 10 samples.

Results

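Accessible chromatin was described around 10 genes of the epidermal growth factor (EGF) receptor family in mouse colon organoids: the receptors *Egfr*, *Erbb2* and *Erbb3*, the ligands *Areg*, *Ereg*, *Epgn*, *Btc*, *Hbegf* and *Tgfa*, and the receptor inhibitor *Lrig1*. The genes were chosen by name from the pathway and make up 10 of the 18452 protein-coding genes with a peak within 20 kb in at least 1 library. For each gene the window was the gene body in GENCODE M21 on GRCm38 with 20 kb on each side, and the measurements were the bases of the window that lay in peaks, the presence of each peak, its pileup (the mean fragment coverage over the peak) and its fold enrichment over local background. Omni-ATAC-seq, in which a transposase cuts and tags open chromatin, was run on sorted live cells of organoids from C57BL/6 mice. AHR KO organoids came from Villin-Cre Ahr fl/fl mice, in which Cre under the Villin promoter deletes the aryl hydrocarbon receptor gene *Ahr* in intestinal epithelium, and WT organoids came from wild-type littermates. WENR, the growth medium, held EGF, R-spondin1, Noggin and Wnt3a-conditioned medium with nicotinamide and inhibitors of p38 and ALK5. In d4 ENR, organoids first grown in WENR were kept for 4 days in medium with EGF, R-spondin1 and Noggin, so EGF was present throughout and the media differed in more than Wnt3a. There were 2 WT WENR, 3 AHR KO WENR, 3 WT d4 ENR and 2 AHR KO d4 ENR libraries. The labels do not say whether libraries of a group came from separate mice, so p values measure the spread between libraries, which may be technical.

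The receptors are tyrosine kinases of the cell surface that dimerise when a ligand binds, and they drive the RAS-ERK and PI3K-AKT cascades. EGFR binds all the ligands listed, while ERBB2 binds no known ligand and acts as a partner of the other receptors. ERBB3 binds neuregulins, has a weak kinase of its own and signals mainly through PI3K. The ligands are made as membrane proteins that are shed by proteases. In the intestine EGF signalling keeps crypt cells dividing, and LRIG1, found on stem cells, lowers the amount of receptor at the membrane.

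The libraries held 30354729 to 49126792 fragments and lists of 33433 to 65308 peaks. The lists covered 61.8 to 67.2 Mb in WENR, 26.2 to 41.0 Mb in WT d4 ENR and 46.6 to 50.1 Mb in AHR KO d4 ENR, and peaks held 63.0 to 68.6%, 14.1 to 30.9% and 33.8 to 44.2% of the fragment coverage in those groups. WT d4 ENR replicate 1 had the shortest list and the lowest share. Because list length moved with both medium and genotype, counts of genes or regions that differed between groups are given with the share of all genes or regions that did. Of 9 colon epithelium markers, 8 had a peak over a transcription start in all libraries, while none of 5 immune markers had one in any library. Among 5 fibroblast markers, *Pdgfra* had a start peak in 9 of 10 libraries, *Col1a1* in 8 and the other 3 in none. *Kdr* was the only one of 5 endothelium markers with a start peak, in the 5 WENR libraries. The part of other cells in the results was not tested. Peak lists over *Ahr* do not show the deletion: its window held 3277 to 3846 bases in peaks in WT WENR against 6155 to 8145 in AHR KO WENR, and 1981 to 2632 in WT d4 ENR against 4471 to 4712 in AHR KO d4 ENR.

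The comparison of d4 ENR with WENR asked how accessibility at the genes differed after the change of medium. All 10 windows held fewer bases in peaks in d4 ENR on average, and for 7 of them the libraries of the media did not overlap in either genotype. These 7 had the smallest p the design allows (exact permutation test within genotypes, 2-sided, p = 0.02, adjusted p = 0.0335 over all 18452 genes). Over all genes 59.3% were lower in this way and 0.358% higher, so the count for the EGF family was close to the background. For the 10 genes the median of the log2 ratios (d4 ENR over WENR) was -0.66, and for all genes it was -0.52. The 3 receptors lay above that median of all genes and the other 7 genes below it.

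**Figure D1:**
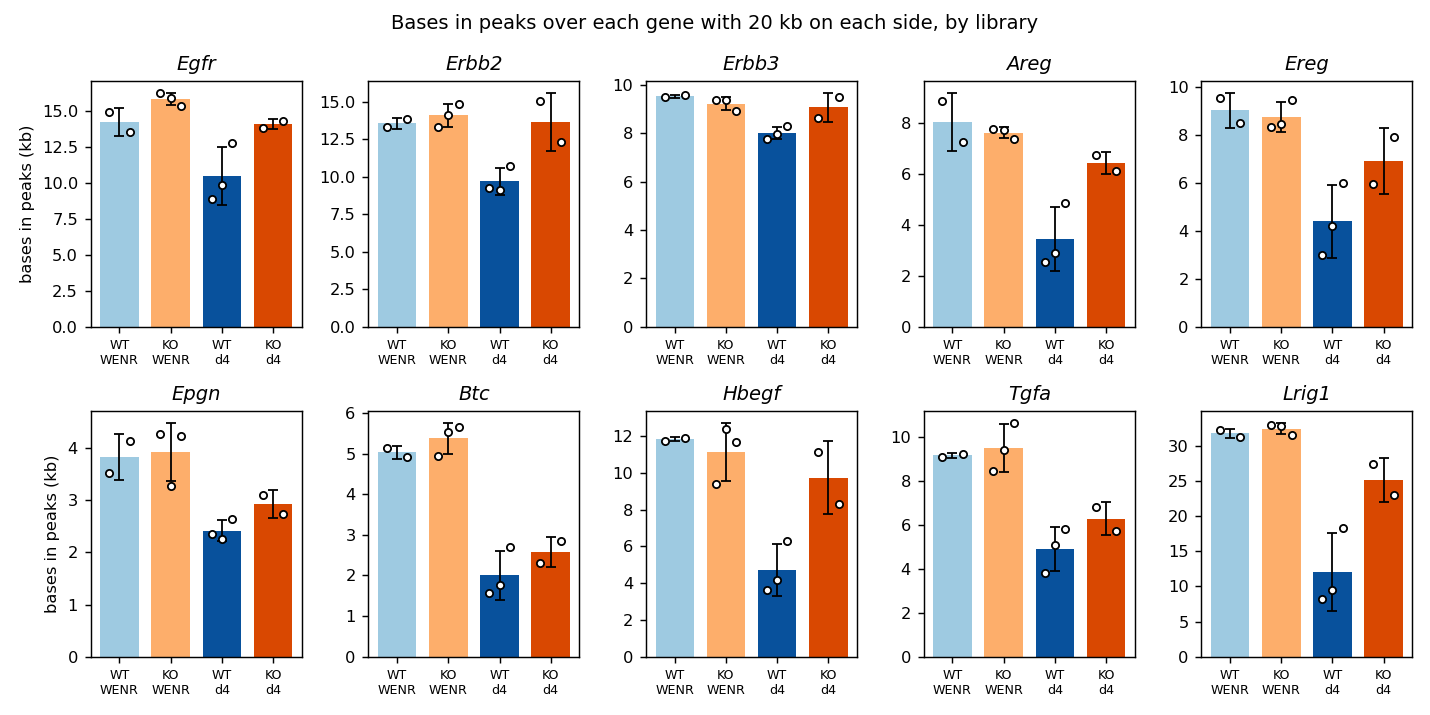
Bases in peaks (kb) over each gene with 20 kb on each side. Bars give the mean of a group, error bars the SD and points the single libraries (2 WT WENR, 3 AHR KO WENR, 3 WT d4 ENR, 2 AHR KO d4 ENR); the axis of each gene starts at 0. WT d4 ENR is the lowest group for every gene, while the WENR groups lie close together.

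The window of *Erbb3* (gene body chr10:128567523-128589652, minus strand) kept most of its accessible sequence. It held 9487 and 9575 bases in peaks in the WT WENR libraries, 9357, 9383 and 8906 in AHR KO WENR, 7769, 7965 and 8282 in WT d4 ENR and 8651 and 9502 in AHR KO d4 ENR. In WT the media did not overlap, and d4 ENR held 84.0% of the WENR mean. In AHR KO they did overlap, at 98.5% (exact permutation p = 0.08 over both genotypes, adjusted p = 0.104).

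*Egfr* (chr11:16752203-16918158, plus strand), the receptor that the ligands share, fell on average from 14211 ± 969 (SD, n = 2) to 10475 ± 2005 bases (n = 3) in WT and from 15809 ± 442 (n = 3) to 14068 ± 336 (n = 2) in AHR KO. Its libraries in the media did not overlap in either genotype. *Erbb2* (chr11:98412470-98437716, plus strand) held 13290 and 13822 bases in WT WENR and 9085 to 10699 in WT d4 ENR, but 13322 to 14860 in AHR KO WENR and 12291 and 15039 in AHR KO d4 ENR. The AHR KO libraries of *Erbb2* overlapped between the media (exact permutation test, adjusted p = 0.104). The windows of *Erbb2* and *Erbb3* also take in transcription starts of their neighbours *Pgap3*, *Mien1* and *Grb7*, and *Rpl41*, *Zc3h10* and *Pa2g4*. The values of these 2 windows are therefore in part those of other genes. In WENR the region over the start of *Grb7* held 4058 bases on average, where the whole window of *Erbb2* held 13830.

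Among the ligands, *Btc* (betacellulin, chr5:91357261-91402994, minus strand) had the smallest ratio, with a log2 ratio of -1.18. It fell from 5143 and 4911 bases to 1558, 1763 and 2693 in WT, and from 4945, 5529 and 5654 to 2316 and 2843 in AHR KO. The highest d4 ENR library, at 2843 bases, lay far below the lowest WENR library, at 4911. *Btc* kept 39.9% in WT and 48.0% in AHR KO, and in AHR KO its ratio was at percentile 8.35 of all genes.

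*Tgfa* (transforming growth factor alpha, chr6:86195223-86275719, plus strand) also fell in both genotypes, from 9183 ± 105 (n = 2) to 4918 ± 1008 bases (n = 3) in WT and from 9513 ± 1102 (n = 3) to 6295 ± 762 (n = 2) in AHR KO. It kept 53.6% and 66.2% of its WENR level.

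*Areg* (amphiregulin, chr5:91139599-91148432, plus strand) and *Ereg* (epiregulin, chr5:91074622-91093646, plus strand) are neighbours in a cluster of ligand genes that also holds *Epgn* (epigen, chr5:91027464-91035215, plus strand) and *Btc*. *Areg* held 8856 and 7238 bases in WT WENR and 2552, 2873 and 4875 in WT d4 ENR, or 42.7% of the WENR mean. In AHR KO it held 7754, 7725 and 7367 bases in WENR and 6736 and 6121 in d4 ENR, or 84.4%. The WT d4 ENR libraries were the low ones, and the lowest library of the other groups held 6121 bases. *Ereg* kept 48.6% in WT and 79.0% in AHR KO, with 2970 to 5988 bases in WT d4 ENR and 5932 and 7890 in AHR KO d4 ENR. *Epgn* kept 63.1% and 74.4%. A site in an intron of its neighbour *Mthfd2l* held 1888 bases on average in WENR and 1432 in d4 ENR. The whole window of *Epgn* held 3873 and 2665, so its values are in part those of another gene. *Areg*, *Ereg* and *Epgn* fell in both genotypes without overlap.

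*Hbegf* (heparin-binding EGF-like growth factor, chr18:36504927-36515805, minus strand) held 11753 and 11891 bases in WT WENR and 3651, 4190 and 6296 in WT d4 ENR. In AHR KO the WENR libraries held 9377, 12359 and 11698 bases and the d4 ENR libraries 11140 and 8319. The media were far apart in WT, at 39.9% kept, and overlapped in AHR KO, at 87.3% (exact permutation test, adjusted p = 0.0585). *Lrig1* (chr6:94604529-94700158, minus strand) had the widest accessible area, with 31269 to 32911 bases in the WENR libraries. It fell to 8223, 9530 and 18352 bases in WT d4 ENR, 37.9% of WENR, and to 27356 and 22923 in AHR KO d4 ENR, 77.6%. WT d4 ENR replicate 3, the longest of the WT d4 ENR lists, held about as much of *Lrig1* as the other pair of libraries together.

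**Figure D2:**
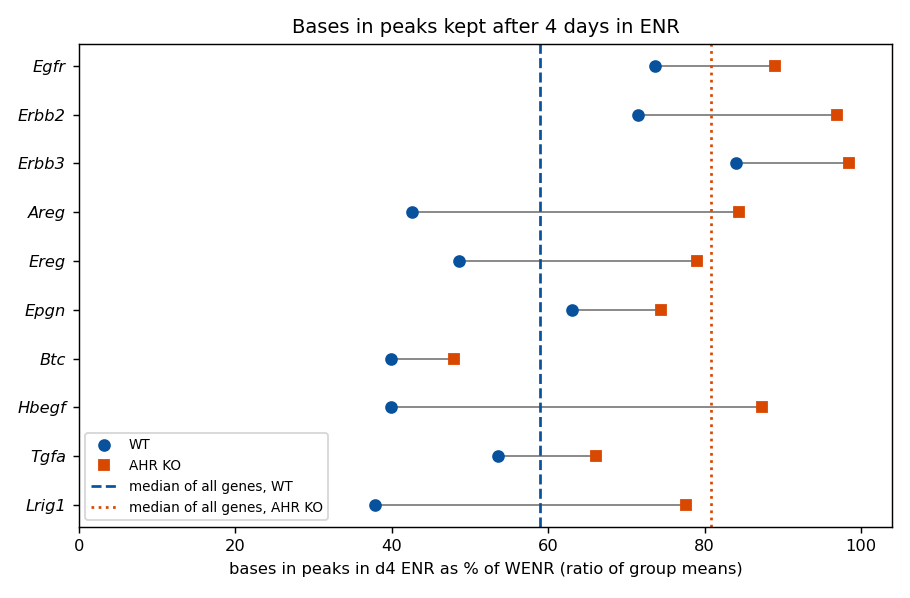
Mean bases in peaks in d4 ENR as a percentage of the mean in WENR, for WT (circles) and AHR KO (squares), with the median of all genes in each genotype as a vertical line (59.0% in WT, 80.9% in AHR KO). The receptors lie to the right of the WT line, *Areg*, *Hbegf* and *Lrig1* lie far apart between genotypes, and *Btc* lies at the left in both.

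Scaling changed the order of the genes only between *Hbegf* and *Tgfa*, but it changed the sign for some. When the bases of each window were divided by the Mb that the library's list covered, the median log2 ratio over all genes moved from -0.52 to 0.12. On this scale *Egfr*, *Erbb2* and *Erbb3* were higher in d4 ENR without overlap, with log2 ratios of 0.36, 0.41 and 0.56, where 25.7% of all genes were higher in this way. *Btc* was the only one of the 10 genes that was lower without overlap, at -0.54, where 12.5% of genes were. Its scaled values were 78.2 to 88.0 bases per Mb in WENR and 49.7 to 65.7 in d4 ENR. *Lrig1* was at -0.22, *Areg*, *Ereg*, *Hbegf* and *Tgfa* between -0.08 and -0.05, and *Epgn* at 0.14, all with overlapping libraries. *Btc* was thus lower without overlap on both scales, whereas *Egfr* was lower on one and higher on the other.

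**Figure D3:**
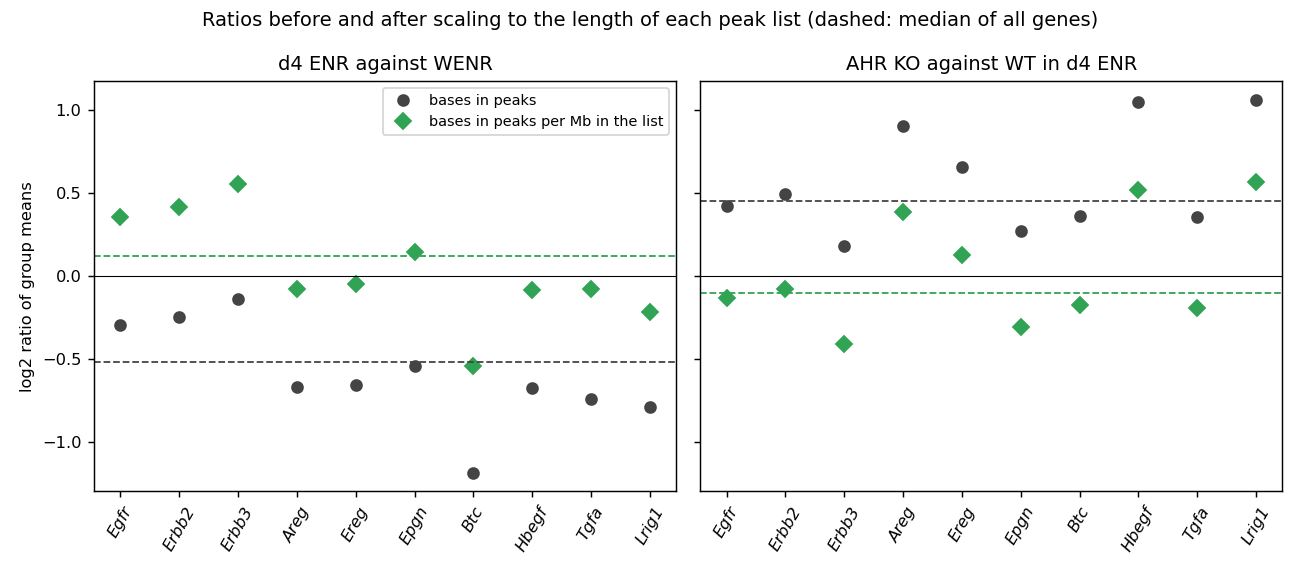
The log2 ratio of group means for each gene, from bases in peaks (circles) and from bases in peaks per Mb of the library's list (diamonds). Dashed lines give the median of all genes on the same scale (-0.52 and 0.12 on the left, 0.45 and -0.10 on the right). The 3 receptors lie above the median and *Btc* below it in the left panel on both scales, and *Areg*, *Hbegf* and *Lrig1* lie above it in the right panel on both scales.

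The comparison of AHR KO with WT in d4 ENR asked what the loss of AHR changed after differentiation. All 10 genes had a higher mean in AHR KO, and for 7 of them (all but *Ereg*, *Btc* and *Tgfa*) the libraries did not overlap. Over all genes 59.5% were higher in this way, so the count again lay near the background, and with 3 against 2 libraries no exact permutation p can go below 0.2 (adjusted p = 0.335). The largest ratios were those of *Lrig1*, *Hbegf* and *Areg*, with log2 ratios of 1.06, 1.05 and 0.90. They lay at percentiles 91.7, 91.3 and 87.4 of all genes, and *Erbb3*, at 0.18, lay at percentile 13.5. Per Mb of the list, *Lrig1*, *Hbegf* and *Areg* stayed higher in AHR KO without overlap, at 0.57, 0.52 and 0.39, where 10.7% of all genes did. On that scale *Egfr* and *Erbb3* were lower without overlap, at -0.13 and -0.41, as were 22.1% of genes. With all lists shortened to 33433 peaks instead, *Lrig1* and *Areg* were at 0.93 and 0.70, against a median of 0.33 over all genes. *Hbegf* was then at 0.25 with overlapping libraries, below that median.

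In WENR the genotypes lay close together. *Egfr* was the only one of the 10 genes higher in AHR KO without overlap, with 15329 to 16199 bases against 13526 and 14896 in WT (12.5% of all genes were higher in this way). *Erbb3* was lower without overlap, with 8906 to 9383 against 9487 and 9575 bases (10.5% of genes). Neither passed the test (exact permutation p = 0.2, adjusted p = 0.870). Over both media *Egfr* was higher in AHR KO without overlap in either, as were 7.54% of genes (exact permutation test, adjusted p = 0.265), while 0 of the 10 were lower (0.0163% of genes), and per Mb of the list its log2 ratio was -0.02. The difference between the media in the genotype effect was below 0.05 for *Erbb3* alone among the 10 genes (exact permutation p = 0.02), against 11.5% of all genes, and did not pass adjustment (adjusted p = 0.317).

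Peaks of the 10 libraries were merged where they shared at least 1 bp, which gave 85680 regions, 111 of them in the windows and named here by gene and order along the chromosome. Region midpoints lay in introns for 71, in exons for 12 and between genes for 28. *Lrig1* had 33 regions, *Egfr* 21 and *Btc* 4. In WENR libraries 83 to 90 of the 111 regions were called, against 55, 64 and 77 in WT d4 ENR and 80 and 80 in AHR KO d4 ENR. Of all regions the same libraries called 70.9 to 75.7% in WENR, 37.8, 52.5 and 60.8% in WT d4 ENR and 56.4 and 66.0% in AHR KO d4 ENR, so the whole lists were also shorter in d4 ENR. All 10 libraries called 50 regions (45% of the windows' regions against 32.9% of all regions). These took in 8 of 9 regions at *Erbb2* and 5 of 6 at *Erbb3*, but 11 of 33 at *Lrig1* and 4 of 11 at *Tgfa*. A region lies in a window by position only, and nothing here links it to the gene.

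**Figure D4:**
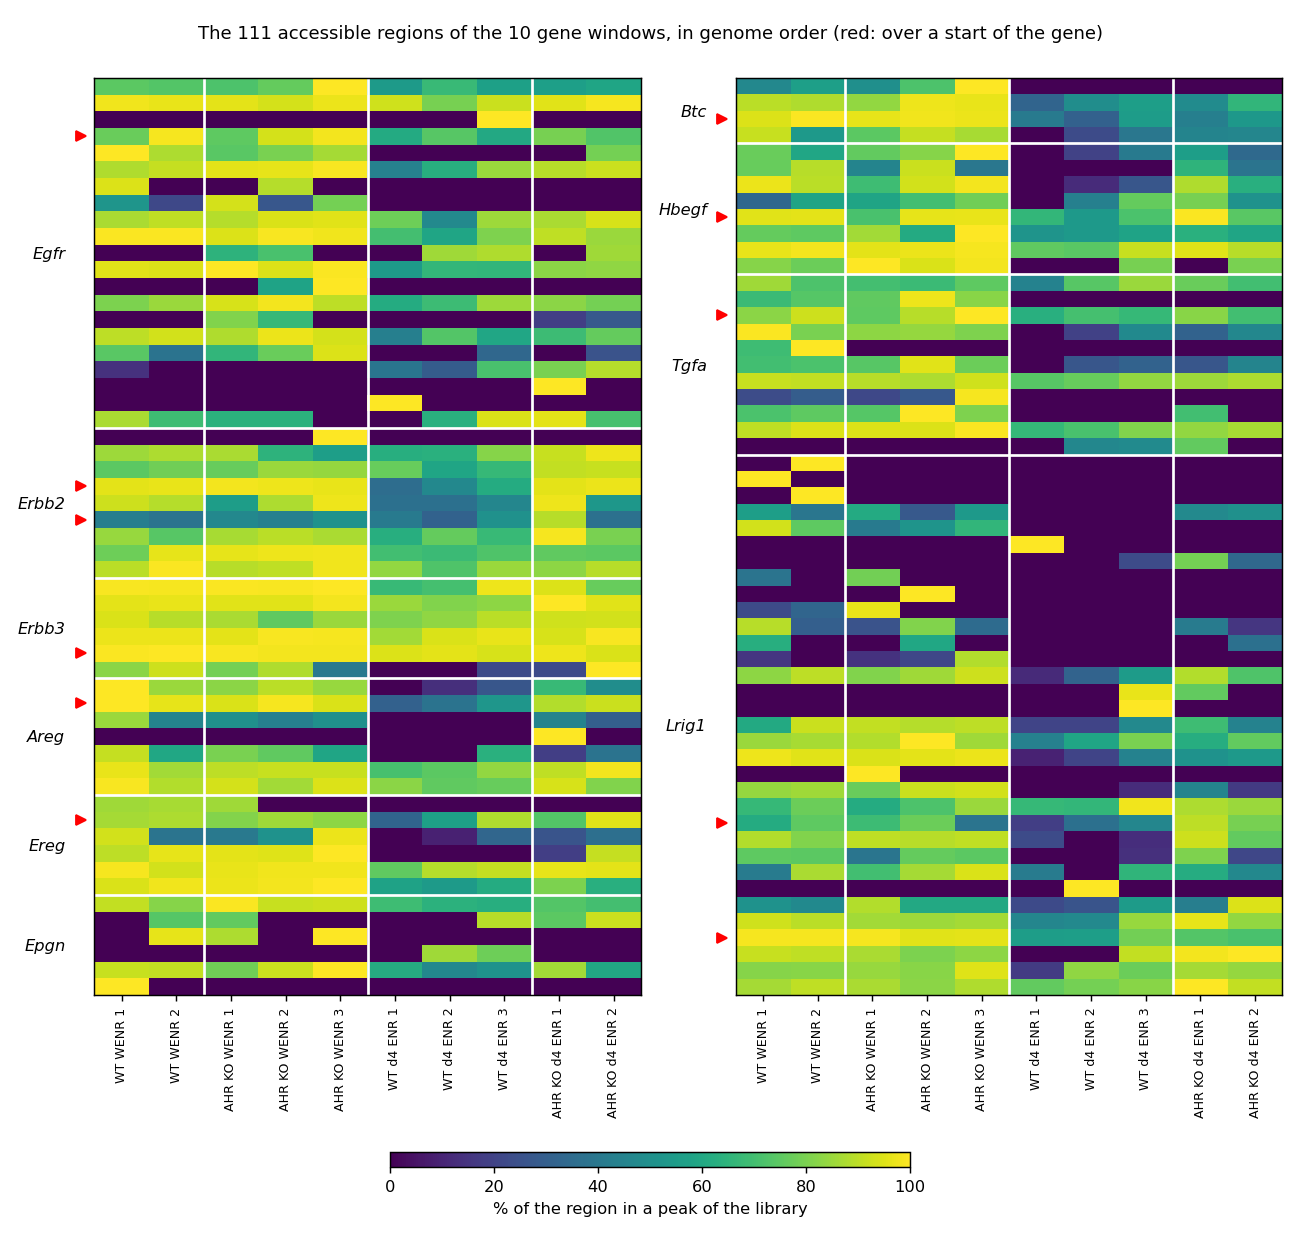
Each row is 1 of the 111 regions, grouped by gene and ordered along the chromosome, and each column 1 library. The colour gives the share of the region that lay in a peak (0 to 100%), and red arrows mark the 11 regions over a transcription start of the gene. Start regions hold a peak in all 10 columns, though at some, such as that of *Areg* in WT d4 ENR, it takes up only part of the region. Dark cells gather in the WT d4 ENR columns at *Areg*, *Ereg*, *Hbegf*, *Tgfa* and *Lrig1*.

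The 11 regions over a start of one of the genes were called in all libraries, so they differed between libraries in width and not in presence. For *Epgn* no peak covered the start, and the nearest region, 0.68 kb inside the gene, was called in 5 of 10 libraries. The start peak of *Btc* (region 3, chr5:91400490-91403185) spanned 2552 and 2680 bases in WT WENR and 2593, 2643 and 2616 in AHR KO WENR, but 1113, 837 and 1488 in WT d4 ENR and 1159 and 1438 in AHR KO d4 ENR. It was narrower in d4 ENR in both genotypes without overlap (exact permutation p = 0.02, the smallest the design allows, adjusted p = 0.0636 over all regions), as were 30.8% of all regions. The start peak of *Areg* (region 2, chr5:91139084-91141530) spanned 2312 to 2447 bases in WENR and 2165 and 2252 in AHR KO d4 ENR, but 760, 936 and 1286 in WT d4 ENR. Only the WT d4 ENR libraries were narrow there (29.3% of all regions were higher in AHR KO d4 ENR without overlap). The first start region of *Erbb2* (region 4) had the same form, with 847, 1099 and 1454 bases in WT d4 ENR and 2263 to 2313 in the other libraries. The start peak of *Erbb3* (region 5) spanned 3203 to 3406 bases in all 10 libraries. Within that range it too was narrower in d4 ENR without overlap, with means of 3248.5 bases in d4 ENR and 3374.2 in WENR (exact permutation p = 0.02, adjusted p = 0.0636).

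Over the start of *Areg* the fold enrichment was 3.16 to 3.64 in WENR, 4.22 and 4.24 in AHR KO d4 ENR and 4.92, 5.40 and 6.24 in WT d4 ENR, where the peak was narrowest. The pileup there, divided by the library's fragments and multiplied by 1000000 (the scaled pileup), was 3.15 to 3.36 in WENR, 0.96 to 1.75 in WT d4 ENR and 1.39 and 1.77 in AHR KO d4 ENR. Fold enrichment is a mean over the called peak, so its value depends on where the caller set the edges.

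**Figure D5:**
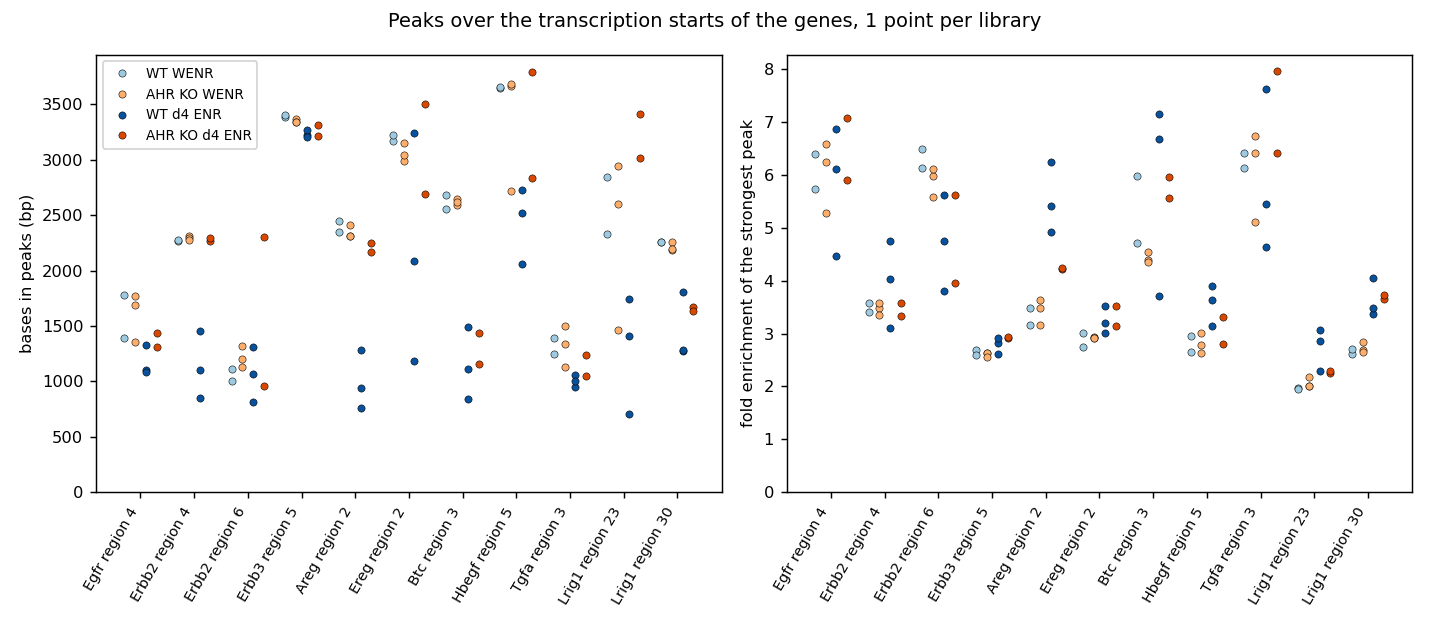
Bases in peaks (left, bp) and fold enrichment of the strongest peak (right) in the 11 regions over a transcription start of the genes, 1 point per library in the colour of its group. At *Areg* region 2 and *Erbb2* region 4 the 3 WT d4 ENR points lie far below all others on the left, and at *Btc* region 3 all 5 d4 ENR points do.

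The 250 bases before the start are shown for *Areg* and *Btc*, whose start peaks were narrow in WT d4 ENR and in all d4 ENR libraries, respectively (RefSeq, GRCm38.p6). Capitals mark matches on either strand to TGANTCA (bound by AP-1 factors), CATTCC (the core read by TEAD factors) and GCGTG (the core read by AHR with ARNT), and no matches overlapped each other. *Areg* (chr5:91139349-91139598, plus strand) had none of these, and *Btc* (chr5:91402995-91403244, minus strand) had 2 matches to GCGTG.
Areg promoter: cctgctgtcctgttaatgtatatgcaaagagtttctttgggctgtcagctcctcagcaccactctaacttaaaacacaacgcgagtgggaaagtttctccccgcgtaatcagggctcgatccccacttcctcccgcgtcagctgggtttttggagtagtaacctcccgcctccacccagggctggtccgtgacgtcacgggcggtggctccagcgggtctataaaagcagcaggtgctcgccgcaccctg
Btc promoter: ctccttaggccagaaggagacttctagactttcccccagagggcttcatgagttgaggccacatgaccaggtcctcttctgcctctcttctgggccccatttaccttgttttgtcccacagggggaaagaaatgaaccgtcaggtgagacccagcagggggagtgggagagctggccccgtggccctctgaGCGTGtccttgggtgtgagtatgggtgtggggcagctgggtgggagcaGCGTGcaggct
Over 32851 RefSeq promoters of this length, 28.2% held GCGTG, 12.6% CATTCC and 6.75% TGANTCA. RefSeq promoters were matched for 7 of the 10 genes, not for *Erbb3*, *Ereg* or *Hbegf*.

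Of the 111 regions, 5 were called in all WENR and no d4 ENR library (4.5%, against 5.46% of all regions) and 0 the other way round (0.317%). They were *Egfr* region 8, *Btc* region 1, *Tgfa* regions 2 and 8 and *Lrig1* region 5. With lists of equal length the count was 2 (1.66% of all regions). *Egfr* region 8 (chr11:16782900-16785049), in an intron 31.8 kb from the start, spanned 1121 and 465 bases in WT WENR and 2011, 583 and 1702 in AHR KO WENR. Its scaled pileup was 0.47 to 0.77. *Btc* region 1 (chr5:91345219-91345973), beyond the end of the gene, spanned 353 to 755 bases at a scaled pileup of 0.33 to 0.75. *Tgfa* region 2 (chr6:86180504-86181041), upstream of the gene, was stronger, at 1.05 to 1.66, and *Tgfa* region 8 (chr6:86246155-86248088), in an intron, had 0.35 to 0.63. The weakest 5% of peaks lay below a scaled pileup of 0.374 to 0.382 in WENR and below 0.318 to 0.367 in d4 ENR, so *Tgfa* region 2 stood well above the weakest peaks, as did *Lrig1* region 5 at 0.65 to 1.12, and *Egfr* region 8 stood above them. *Btc* region 1 and *Tgfa* region 8 fell within the weakest 5% in WT WENR replicate 1, whose limit was 0.381, at 0.329 and 0.349.

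Only *Egfr* region 18 (chr11:16900251-16902306), in an intron 149 kb from the start, was higher in d4 ENR without overlap among the 111 regions (0.676% of all regions were). It spanned 797, 597 and 1469 bases in WT d4 ENR and 1640 and 1827 in AHR KO d4 ENR, against 290 bases in WT WENR replicate 1 and no peak in the other 4 WENR libraries. Its fold enrichment was 2.91 to 4.05 in d4 ENR and its scaled pileup 0.37 to 0.61. The difference did not pass over all regions (exact permutation p = 0.02, adjusted p = 0.0636). The whole window of *Egfr* held fewer bases in d4 ENR, so this region and the window as a whole differed in opposite directions.

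In d4 ENR 6 of the 111 regions were called in both AHR KO and no WT library (5.41%, against 2.84% of all regions), and 0 in the converse (0.0864%). These were *Egfr* region 15, *Areg* region 3, *Ereg* region 4, *Hbegf* region 2 and *Lrig1* regions 4 and 11. All but *Egfr* region 15 were also called in all 5 WENR libraries, so they were lost in WT and kept in AHR KO. *Ereg* region 4 (chr5:91090369-91091993), over an exon, spanned 1465 to 1625 bases in WENR, none in WT d4 ENR and 304 and 1483 in AHR KO d4 ENR. *Areg* region 3 (chr5:91144626-91145644), in an intron, spanned 442 to 865 bases in WENR and 455 and 307 in AHR KO d4 ENR, and *Lrig1* region 4 (chr6:94600454-94602396), in an intron of the neighbour *Slc25a26*, 543 to 1190 and then 912 and 977. The scaled pileup of these 3 regions in AHR KO d4 ENR was 0.41 to 0.53, and the weakest 5% of those lists lay below 0.367 (replicate 1) and 0.348 (replicate 2). *Egfr* region 15 had 0.376 and 0.397, *Lrig1* region 11 had 0.438 and 0.530, and *Hbegf* region 2 had 0.522 and, within the weakest 5% of replicate 2, 0.343. Ranked by fold enrichment in those lists, *Areg* region 3 lay at percentiles 1.99 and 1.24 and *Lrig1* region 4 at 3.53 and 2.21, among the weakest peaks. With lists shortened to equal length the count was 1 (0.824% of all regions), and without WT d4 ENR replicate 3 it was 13 (6.78%).

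In WT 15 regions were called in all WENR and no d4 ENR library (13.5%, against 12.8% of all regions), and in AHR KO 6 were (5.41%, against 9.49%). With lists of equal length the counts were 3 (3.36% of all regions) and 5 (3.37%). In WENR *Tgfa* region 5, an intron site, was called in both WT libraries and no AHR KO library (0.901%, against 0.759% of all regions), with 259 and 376 bases, and 0 regions were called in all AHR KO and no WT library (1.18% of all regions).

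The central 201 bases are shown for the regions that marked these differences: *Egfr* region 8 (chr11:16783616-16783816), *Btc* region 1 (chr5:91345515-91345715), *Tgfa* region 2 (chr6:86180665-86180865) and *Tgfa* region 8 (chr6:86246328-86246528), lost in d4 ENR in both genotypes; *Areg* region 3 (chr5:91145033-91145233) and *Lrig1* region 4 (chr6:94601550-94601750), lost in WT alone; and *Egfr* region 18 (chr11:16900986-16901186), higher in d4 ENR. They are the plus strand of GRCm38.p6 around the median midpoint of the region's peaks, with the same motifs in capitals.
Egfr region 8: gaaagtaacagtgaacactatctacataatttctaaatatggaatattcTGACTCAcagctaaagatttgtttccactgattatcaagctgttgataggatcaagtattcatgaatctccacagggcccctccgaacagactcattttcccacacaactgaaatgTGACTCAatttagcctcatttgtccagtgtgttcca
Btc region 1: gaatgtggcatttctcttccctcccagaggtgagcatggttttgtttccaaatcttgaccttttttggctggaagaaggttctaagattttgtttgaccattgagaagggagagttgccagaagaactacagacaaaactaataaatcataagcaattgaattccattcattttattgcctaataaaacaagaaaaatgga
Tgfa region 2: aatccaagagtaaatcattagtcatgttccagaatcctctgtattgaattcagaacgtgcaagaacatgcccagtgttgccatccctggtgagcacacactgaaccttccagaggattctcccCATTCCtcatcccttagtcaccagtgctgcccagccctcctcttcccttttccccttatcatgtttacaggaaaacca
Tgfa region 8: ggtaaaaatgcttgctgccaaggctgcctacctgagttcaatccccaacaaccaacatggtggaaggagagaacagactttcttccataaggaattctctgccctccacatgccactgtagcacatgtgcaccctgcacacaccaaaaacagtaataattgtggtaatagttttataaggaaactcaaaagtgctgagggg
Areg region 3: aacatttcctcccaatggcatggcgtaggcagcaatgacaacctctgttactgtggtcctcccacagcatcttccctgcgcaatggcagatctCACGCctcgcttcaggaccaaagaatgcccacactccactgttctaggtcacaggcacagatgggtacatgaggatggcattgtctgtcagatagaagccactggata
Lrig1 region 4: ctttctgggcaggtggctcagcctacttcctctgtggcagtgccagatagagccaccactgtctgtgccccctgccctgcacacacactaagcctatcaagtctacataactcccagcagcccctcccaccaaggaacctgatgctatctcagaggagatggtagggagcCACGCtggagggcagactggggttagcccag
Egfr region 18: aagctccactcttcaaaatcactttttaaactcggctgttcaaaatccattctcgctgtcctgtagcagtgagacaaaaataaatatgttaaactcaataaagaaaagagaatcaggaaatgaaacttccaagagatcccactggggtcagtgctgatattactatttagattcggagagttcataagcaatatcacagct
*Egfr* region 8 held 2 matches to TGANTCA, *Tgfa* region 2 held 1 to CATTCC, and *Areg* region 3 and *Lrig1* region 4 held 1 each to GCGTG. In windows of this length 9.01% of the 111 regions held TGANTCA, 15.3% CATTCC and 12.6% GCGTG, against 15.4%, 12.9% and 16.2% of all 85680 regions. A match says only that the letters are present.

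By the fold enrichment of the strongest peak in each window, *Erbb2* was the only gene lower in d4 ENR without overlap in either genotype, with 6.62 and 6.81 in WT WENR and 4.72, 5.02 and 6.20 in WT d4 ENR, and 6.22 to 6.40 and 5.28 and 6.20 in AHR KO. Of 15803 genes with a peak in all libraries, 16.4% were lower in this way (exact permutation p = 0.02, adjusted p = 0.110), and 1.84% were higher, with 0 of the 10. For *Egfr* the media overlapped, with 6.26 to 6.87 in WENR and 4.57 to 7.07 in d4 ENR. The strongest peak was not the same site in every library and could lie at a neighbour. For *Erbb2* it was region 3, over the start of *Pgap3*, in WT WENR and region 9, between genes, in AHR KO d4 ENR replicate 2. For *Egfr* it was region 14, over the start of *Egfros*, in WT WENR and region 4 in AHR KO d4 ENR. Between genotypes in d4 ENR no gene of the 10 was without overlap (8.86% of genes were higher in AHR KO and 1.03% lower). Without WT d4 ENR replicate 1 there were 5 lower (36.3% of genes), and without AHR KO d4 ENR replicate 1 there were 3 higher (32.6%). With all libraries 0 of the 10 had an unadjusted p under 0.05, which 2 against 3 libraries cannot reach. In WENR *Egfr*, at 6.26 to 6.59 against 6.86 and 6.87, and *Erbb2*, at 6.22 to 6.40 against 6.62 and 6.81, were lower in AHR KO (7.75% of genes; exact permutation test, adjusted p = 0.967), and 0 of the 10 were higher (12.9%).

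Other genes of the pathway were taken from 5 lists with 56 genes, 55 of which had a peak. In d4 ENR 42 of 55 fell without overlap in both genotypes and 0 rose, against 59.3% and 0.358% of all genes, with a median log2 ratio of -0.58. Of 14 feedback inhibitors 12 fell, from *Spred1*, an inhibitor of RAS signalling, at -1.14 to *Lrig3*, a relative of *Lrig1*, at -0.14 with overlap. Of 5 genes of ligand shedding 4 fell. *Adam10*, a protease that sheds *Btc*, was lowest at -0.92, and *Rhbdf1*, which helps the protease ADAM17 mature, was highest at -0.27 with overlap. Of 23 adaptors and kinases 18 fell, and *Nras*, a RAS gene, was highest at -0.08 with overlap. Of 8 response genes 6 fell, with the ETS factor genes *Etv4* at -1.15 and *Etv5* at -0.30, the latter with overlap. Of the 5 other ligand and receptor genes 2 fell: *Nrg1*, a ligand of ERBB3, had 545 to 1138 bases in peaks in the WENR libraries and none in d4 ENR, while *Nrg4*, a ligand of ERBB4, was at 0.01 with overlap.

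In d4 ENR 34 of the 55 were higher in AHR KO without overlap and 0 lower, against 59.5% and 0.26% of all genes, with a median log2 ratio of 0.47 against 0.45 for all genes. Per Mb of the list 13 of the 55 were higher in d4 ENR than in WENR and 5 lower (25.7% and 12.5% of all genes). On that scale 5 were higher in AHR KO d4 ENR and 11 lower (10.7% and 22.1%).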

How the data were processed

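Omni-ATAC-seq peak lists of 10 libraries were used. Per the file headers and the study's methods, the authors aligned reads to GRCm38 with BWA in nf-core/atacseq. They ran MACS 2.2.7.1 in broad mode on single libraries, with no control and no pooling, at q 0.1 for broad and 0.05 for narrow regions, with lambda taken over 10000 bp. The authors give for each peak the pileup, a coverage signal not scaled for library size, the fold enrichment over local background, a ratio within the library, and significance as −log10 p and −log10 q, of which q served as a filter only. An absent peak means below the threshold of that library, and no read counts were used here.

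Bases in peaks were summed over GENCODE M21 gene bodies with 20 kb on each side, on the assembled chromosomes. Regions were peaks merged at 1 bp of overlap. Scaled pileups are pileups per 1000000 fragments, as counted in the file headers, without correction for fragment length. Groups were compared with exact permutation tests, 2-sided as 2 times the smaller tail, within genotypes or media (100 arrangements, smallest p 0.02) or within 1 medium (10 arrangements, smallest p 0.2), with Benjamini-Hochberg adjustment over all genes or regions and a threshold of 0.05. Groups that do not overlap are those in which every library of one lies above every library of the other, in each genotype or medium compared. All 10 genes are named. In each pathway list the genes with the smallest and largest ratio of d4 ENR to WENR are named, except 1 that is not reported here. Regions named are mainly from those over a start and the one with the highest mean fold enrichment in each window. Those called in all libraries of one medium or genotype and none of the other were named too. Of the regions over a start only some are described by number. The region nearest the start of *Epgn*, *Hbegf* region 7 and some sites of strongest peaks lie outside this rule. *Lrig1* region 7, called in 3 d4 ENR libraries and no WENR library, and *Areg* region 6 were chosen after their values were seen, as were the regions whose sequences are printed. The genes and lists were chosen with earlier results of these data known. Groups and replicate numbers were taken from the labels. Analyses used Python 3.11.15, numpy 2.4.6, pandas 2.3.3, scipy 1.17.1 and matplotlib 3.10.9, and the counting and the test were checked on simulated data. Alternatives were lists of equal length (33433 peaks), a −log10 q of at least 5, other windows, scaling to the list or to fragments, rank in the list, at least 50% of a region covered, a replicate block and leaving out each library.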

Additional observations from a re-analysis of the deposited data

Results flagged for a closer look

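The effect of genotype on the window of *Erbb3* differed between the media. The difference in bases in peaks between AHR KO and WT was larger in d4 ENR than in WENR by 1387 bases (exact permutation p = 0.02, adjusted p = 0.317 over all genes). AHR KO held 1071 bases more than WT in d4 ENR and, with means of 9215 and 9531 bases, less in WENR (difference -316 bases). The site with the largest difference was region 6, between genes upstream of *Erbb3* (670 bases in d4 ENR, -227 in WENR). Its AHR KO d4 ENR libraries held 279 and 1247 bases. Regions 1 and 2, over starts of *Rpl41*, *Zc3h10* and *Pa2g4*, differed by 223.2 and 221.5 bases in d4 ENR. Regions 3, 4 and 5, in introns of *Erbb3*, differed by 62.3, 41.5 and 33.0 bases. A p below 0.05 was found for 11.5% of all genes, and for 0 of the 10 genes both with lists of equal length and after scaling to the list.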

How the results depend on the processing

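Percentages in parentheses give the share of all genes or regions with the same difference under the same setting. The number of the 10 genes lower in d4 ENR was 7, and higher in AHR KO d4 ENR 7. With lists of equal length these were 5 (35.8%) and 6 (51.7%), and of the other pathway genes 1 was higher (1.44%) and 19 lower (35.8%) in d4 ENR. In WENR 0 of the 10 genes were then higher (8.55%) and 0 lower (12.1%) in AHR KO, with *Erbb3* at a log2 ratio of 0.041. Over both media 0 were higher (4.59%), and 0 had a p below 0.05 for the difference between media (12.4%). Of the regions 2 were lost in both genotypes (1.66%), 3 in WT (3.36%), 1 was AHR KO only in d4 ENR (0.824%) and 0 were WT only in WENR (0.612%). With a −log10 q of at least 5, 0 genes were higher in AHR KO WENR (11.4%) and 0 over both media (7.08%), 32 regions were called in all libraries (18.9%), 2 were AHR KO only in d4 ENR (3.1%) and 2 WT only in WENR (0.673%). With at least 50% of the region covered 30 were called in all libraries (16.3%). In gene bodies alone 4 genes were lower in d4 ENR (39.3%), 1 pathway gene was lower in AHR KO d4 ENR (0.238%), 3 genes were higher in AHR KO WENR (10.3%) and 2 over both media (5.19%). Of the 71 regions there, 30 were called in all libraries (32.9%), 2 were lost in both genotypes (5.46%), 9 in WT (12.8%) and 3 in AHR KO (9.49%). With 5 kb on each side 3 were lost in both (5.46%).

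Per Mb of the list 3 genes were higher (25.7%) and 1 lower (12.5%) in d4 ENR (13 and 5 pathway genes), and 3 were higher (10.7%) and 2 lower (22.1%) in AHR KO d4 ENR (5 and 11 pathway genes). In WENR 0 were higher (9.03%), over both media 0 were higher (1.35%) and 1 lower (4.71%), and 0 had a p below 0.05 for the difference (5.17%). Log2 ratios with the opposite sign were, for d4 ENR against WENR, *Egfr* 0.36, *Erbb2* 0.41, *Erbb3* 0.56 and *Epgn* 0.14. For AHR KO against WT in d4 ENR they were *Egfr* -0.13, *Erbb2* -0.075, *Erbb3* -0.41, *Epgn* -0.30, *Btc* -0.17 and *Tgfa* -0.19, and over both media *Egfr* -0.021.

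By the pileup of the strongest peak scaled to fragments 2 genes were higher (24.2%) and 0 lower (4.82%) in AHR KO WENR, with *Erbb3* at 0.040, and 2 were higher over both media (18.7%), while 10 were lower in d4 ENR (95.1%) and 9 higher in AHR KO d4 ENR (86.4%). By its rank, in lists of 33433 to 65308 peaks, the strongest peak was higher in d4 ENR for 4 genes (14.4%) and lower for 0 (16.1%), lower in AHR KO d4 ENR for 3 (12.8%) and lower in AHR KO WENR for 4 (11.7%). By its fold enrichment in gene bodies alone these counts were 1 (4.88%), 0 (15.6%), 1 (2.33%) and 4 (8.93%) of 9 genes.

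Same-numbered libraries did not deviate together (correlations of -0.042 to 0.0891). With so few libraries per group this cannot show whether the numbers pair them, and the labels do not say. With a replicate block 3 genes were higher (22.5%) and 2 lower (29.8%) in AHR KO WENR and 3 higher over both media (19.1%). For the strongest peak 2 were then lower in d4 ENR (30.7%), 5 higher in AHR KO d4 ENR (48.9%) and 2 higher in AHR KO WENR (36.2%).

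Leaving out each library in turn gave 7 to 9 genes lower in d4 ENR (59.5 to 68.0%), 7 to 10 higher in AHR KO d4 ENR (59.5 to 80.3%), 1 to 4 higher (12.5 to 28.1%) and 1 to 3 lower (10.5 to 23.1%) in AHR KO WENR and 1 to 3 higher over both media (7.77 to 17.3%). For the strongest peak it gave 1 to 2 lower in d4 ENR (17.2 to 23.9%), 0 to 3 higher (8.85 to 32.6%) and 0 to 5 lower (1.03 to 36.3%) in AHR KO d4 ENR (5 without WT d4 ENR replicate 1), and 0 to 1 higher (12.9 to 36.1%) and 2 to 6 lower (7.71 to 27.1%) in AHR KO WENR (6 without WT WENR replicate 1). For regions it gave 6 to 13 AHR KO only (2.84 to 8.49%, with 13 without WT d4 ENR replicate 3) and 0 to 1 WT only in d4 ENR (0.0864 to 0.838%), 0 to 2 AHR KO only (1.18 to 3.23%) and 1 to 4 WT only (0.759 to 2.3%) in WENR, and 0 to 1 called in all d4 ENR and no WENR library (0.323 to 1.06%, *Egfr* region 18 without WT WENR replicate 1). The causes were not tested.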

Other observations

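*Lrig1* region 7 (chr6:94607492-94608634), over an exon of *Lrig1*, had no peak in any WENR library, 262 bases in WT d4 ENR replicate 3 and 904 and 387 bases in AHR KO d4 ENR, with fold enrichments of 2.80, 2.22 and 2.53.

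The region with the highest mean fold enrichment lay over a start of the gene itself only for *Egfr* (region 4, 6.07) and *Tgfa* (region 3, 6.29) among the 10 windows. At *Erbb2* it was region 7, over the start of *Mien1* (5.48), and at *Erbb3* region 2, over the start of *Pa2g4* (5.60). In the other 6 windows it lay between genes, at 11.1 to 28.7 kb from the start of the gene: *Areg* region 7 (6.95), *Ereg* region 5 (6.48), *Btc* region 4 (6.11, called in 9 of 10 libraries), *Epgn* region 5 (5.23), *Lrig1* region 33 (5.22) and *Hbegf* region 1 (4.78, called in 9 of 10). The mean is over the libraries with a peak, and *Hbegf* region 1 led through the WENR libraries: in AHR KO d4 ENR it had 3.46 and 3.10, where *Hbegf* region 7 had 4.63 and 5.15. *Areg* region 6, 17.6 kb from the start of *Areg*, came next in that window at 6.68. *Areg* region 7 spanned 963 to 1109 bases in WENR and 848 to 1053 in d4 ENR.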
